A study of Mus musculus with 6 samples.

Results

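Gene expression of wild-type (WT) muscle-derived stem cells (MDSC) was compared with that of W4 embryonic stem cells (ESC), a mouse line, on 4 of the 6 arrays of the series. The arrays were chosen by their labels: 2 WT MDSC cultures from separate isolations and 2 W4 ESC cultures. The remaining 2 arrays, of MDSC prepared in the same way from male mice of the same age that lack Mstn (the myostatin gene), served to estimate the spread and are given beside some values. The WT MDSC came from the whole hindlimb muscles of male mice aged 5 weeks; the strain is not given in the sources used here. They were the slowest adhering fraction of a serial preplating, the sixth plate, and were taken at passage 1 after expansion on Matrigel in medium with fetal bovine serum, horse serum and chick embryo extract. The male W4 ESC were taken at passages 12 and 15 of the same line, so that their spread is that of 1 line and not of ESC in general. The labels call the ESC colonies feeder free, whereas the growth protocol describes growth on inactivated mouse embryonic fibroblasts and a short plating on gelatin to remove them. The cultures were harvested at 70% confluence with no treatment named in the labels, and the stated purpose was to define the potency of MDSC by an expression signature.

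Preplating separates the cells of digested muscle by how fast they attach: fibroblasts attach first, then myoblasts, and a slow fraction last, which other work has described as able to form several mesodermal lineages. ESC are kept undifferentiated by a network of transcription factors around Oct4, Sox2 and Nanog, grow as compact epithelial colonies and cycle with a short G1 phase. Mesenchymal cells of adult muscle secrete collagens and other matrix and keep the Hox code of their place in the body, while myoblasts, the progeny of satellite cells, withdraw from the cycle to form muscle fibres.

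The probes covered 59305 spots per array besides the controls. Spots well above background made up 56.2% and 57.0% in the WT isolations, 64.6% in ESC at passage 12 and 57.2% at passage 15, and 0 were saturated. Each level is a log2 processed signal from which the 75th percentile of that array was subtracted, so that a level of 0 is the 75th percentile and a difference of 1 is a 2-fold change. Levels of different probes are not compared. Both WT arrays lay on slide 1 and scan 1, whereas the ESC and Mstn-null arrays lay on slide 2 and scan 2, so the slide and the WT group cannot be told apart. Across genes the WT arrays correlated with each other at r = 0.979, the ESC arrays at 0.977, and WT with ESC arrays at 0.814 to 0.844; genes are not independent replicates. Precision is limited by the number of arrays, and 2 arrays against 2 cannot give an exact permutation p below 0.333. The p-values below come from a limma fit across all genes and measure the spread between these cultures, which for the ESC may be technical.

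The arrays of a group differed in some gene groups, which bears on the results below. The 36 sarcomere genes had a mean level of 2.46 on the array of WT isolation 1 and -0.79 on that of isolation 2, against -2.45 and -2.32 in ESC. Mitosis genes went the other way between the isolations (0.38 and 1.83, against 3.29 and 3.30 in ESC). Macrophage and myeloid genes averaged -0.27 in isolation 1, -2.13 in isolation 2, and -4.08 and -3.67 in ESC. Isolation 1 was the higher for muscle and myeloid transcripts and isolation 2 for those of dividing cells. Among the ESC arrays, genes of the 2-cell-like state averaged -2.38 at passage 12 and -0.45 at passage 15, and mesenchymal progenitor and fibroblast markers averaged 0.26 and -1.24. In whole cultures, fewer cells of a type and less RNA per cell cannot be told apart.

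**Figure D1:**
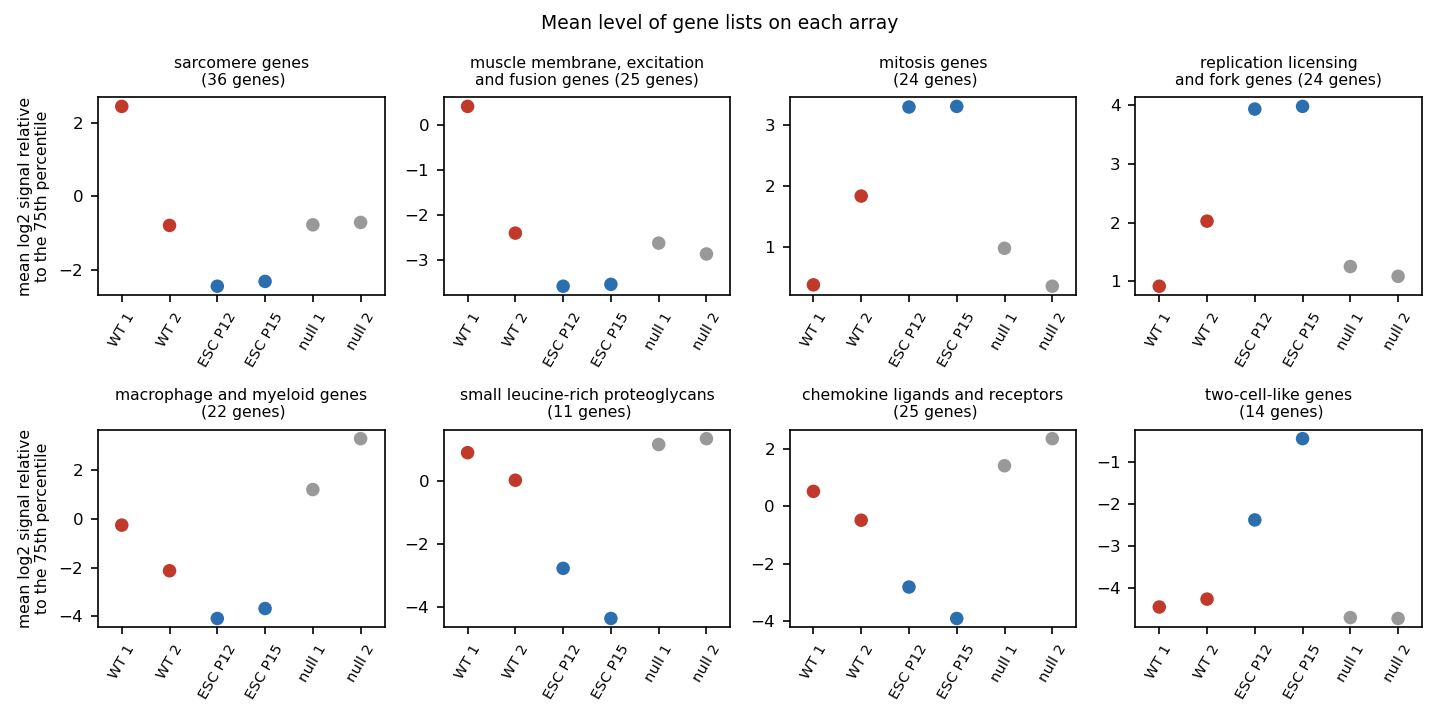
Mean log2 signal relative to the 75th percentile of each array (y axis) for 8 gene lists on the WT MDSC (red), W4 ESC (blue) and Mstn-null MDSC (grey) arrays (x axis); each point is 1 array and the mean runs over the genes of the list named above the panel. Sarcomere genes stand at 2.46 on WT isolation 1 and -0.79 on isolation 2, while mitosis genes stand at 0.38 and 1.83.

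WT MDSC and ESC differed over much of the transcriptome, in about equal numbers of genes in each direction but with larger falls than rises. The test covered 24738 features, named or not. Of these 6783 (27.4%) were called higher in WT MDSC and 6556 (26.5%) lower, together 53.9% (two-sided limma test, adjusted p under 0.05 by Benjamini-Hochberg). At least 2-fold differences were called for 4995 (20.2%) higher and 5068 (20.5%) lower features. Differences of at least 4 on the log2 scale, a 16-fold change, were called for 492 higher and 845 lower features, and of at least 8 for 8 higher and 100 lower ones. The median of all tested differences was 0.02, with 5th and 95th percentiles of -3.29 and 2.88.

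Of the 14750 tested features with an official gene symbol, 4396 (29.8%) were higher and 4325 (29.3%) lower, with a median of 0.01; these shares are the background for the gene lists below. For the 12743 named genes measured above background on each of the 4 arrays, the median absolute difference between WT and ESC was 0.92, against 0.26 between the WT arrays and 0.26 between the ESC arrays. Still, 1219 of these genes differed at least 2-fold between the WT arrays and 816 between the ESC arrays. WT and ESC arrays did not overlap for 80.9% of the tested features (WT above for 41.2%), so that the absence of overlap between 2 and 2 arrays says little by itself. Of the 4610 features that the array design names only by an interval of the mouse mm9 build, 3175 were tested, and 940 (29.6%) were higher and 457 (14.4%) lower. Of the tested named genes, 334 were above background on both WT arrays and neither ESC array, and 838 on both ESC arrays and neither WT array. For 11399 features no difference was called, and for 5897 of all features tested the 95% interval of the difference lay within 1 on either side of 0.

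**Figure D2:**
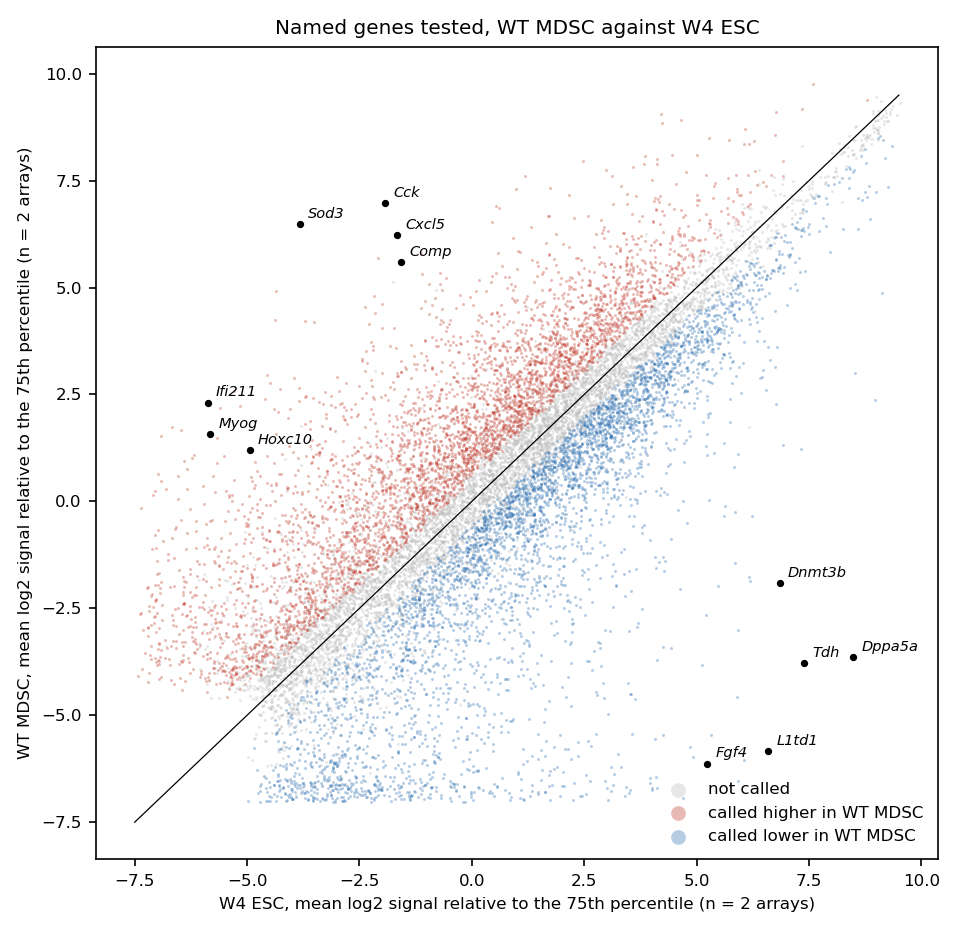
Mean log2 signal relative to the 75th percentile in WT MDSC (y axis, 2 arrays) against W4 ESC (x axis, 2 arrays) for the 14750 named genes tested; red points were called higher in WT MDSC (4396), blue points lower (4325) and grey points were not called, and the line marks equal levels. Labelled genes run from Sod3, far above the line, to Dppa5a, far below it, and the lowest blue points are genes at background in WT MDSC.

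Among named genes measured on each of the 4 arrays, the largest rise was that of Sod3, an extracellular superoxide dismutase. Its level was 7.04 and 5.93 in WT isolations 1 and 2, against -3.05 and -4.61 in ESC passages 12 and 15, a log2 difference of 10.32 ± 0.63 (SE, 2 against 2 arrays, adjusted p = 0.000606). Cck, the gene of the peptide hormone cholecystokinin, read 6.54 and 7.41 against -3.21 and -0.65 (8.90 ± 0.88, adjusted p = 0.00182). The WT arrays agreed more closely than the ESC arrays for both genes, and for neither did the groups overlap. Comp, a cartilage and tendon matrix protein, read 5.56 and 5.62 against -2.74 and -0.41 (7.16 ± 0.81). For Thbs4, a related thrombospondin, the WT arrays lay further apart, at 6.95 and 4.43, against -2.71 and -1.48 (7.79 ± 0.90). The remaining 4 of the 8 largest rises were secreted inflammatory products and a channel whose ESC arrays lay far apart. Cxcl5, a neutrophil-attracting chemokine, read 6.06 and 6.38 in WT but 0.87 and -4.21 in ESC (7.89 ± 1.61, adjusted p = 0.0129). Its call was lost without WT isolation 1 (adjusted p = 0.0537) or isolation 2 (0.0539). The water channel gene Aqp1 read 5.83 and 5.81 against 1.68 and -3.93 (6.95 ± 1.77), and its call was lost in the same way (0.0917 and 0.0844). Ptx3, a soluble pattern recognition protein, had ESC levels of -0.23 and -4.13, and the cytokine gene Il6 of -1.06 and -3.70; their differences were 6.97 ± 1.29 and 6.92 ± 1.24.

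The largest falls were steadier between arrays. Dppa5a, an RNA-binding protein of pluripotent cells, read -3.98 and -3.28 in WT against 8.37 and 8.59 in ESC (-12.11 ± 0.27, adjusted p = 9.15e-05). Tdh, which encodes the threonine dehydrogenase that mouse ESC depend on, read -3.45 and -4.11 against 7.44 and 7.36 (-11.18 ± 0.32). Dnmt3b, a de novo DNA methyltransferase, read -2.30 and -1.52 against 6.95 and 6.74 (-8.75 ± 0.34). For these genes the gap between groups was many times the gap between the arrays of a group. Zscan10, a zinc finger factor, read -4.51 and -4.50 against 3.64 and 3.42 (-8.03 ± 0.29), and Slc2a3, a high-affinity glucose transporter, -1.50 and -2.04 against 5.56 and 6.75 (-7.92 ± 0.44). Fbxo15 (-8.96 ± 0.20), Esrrb (-8.95 ± 0.46) and Rhox5 (-8.04 ± 0.42) completed the 8 largest.

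Genes measured above background in 1 group alone give a lower bound of the fold, the bright mean against the other group's detection limit. On the ESC side the bounds were at least 2752-fold for L1td1, an RNA-binding protein derived from a transposon, 1885-fold for Pou5f1 (Oct4), 1713-fold for Zfp42 (Rex1), 1131-fold for Bex4 and 1069.7-fold for the growth factor gene Fgf4. Tex19.1 (865-fold) and the proto-oncogene Mycn (812-fold) followed. The probe of Pou5f1-rs4 (739-fold) belongs to a near-identical copy of Pou5f1 and is uncertain. On the WT side the bounds were smaller. Ifi211, an interferon-inducible gene, was at least 168-fold higher (2.58 and 2.03 in WT) and Esm1, an endothelial-secreted proteoglycan, at least 147-fold (1.66 and 2.69). Pde8b (at least 70.8-fold) and Cxcl3 (at least 98.6-fold) had WT arrays within 1 of each other, as had Hoxc10. Myh1, Cav3 and Myog, genes of muscle fibres and their formation, had bounds of 113-fold, 109-fold and 102-fold but WT arrays further apart, as described with the muscle genes.

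**Figure D3:**
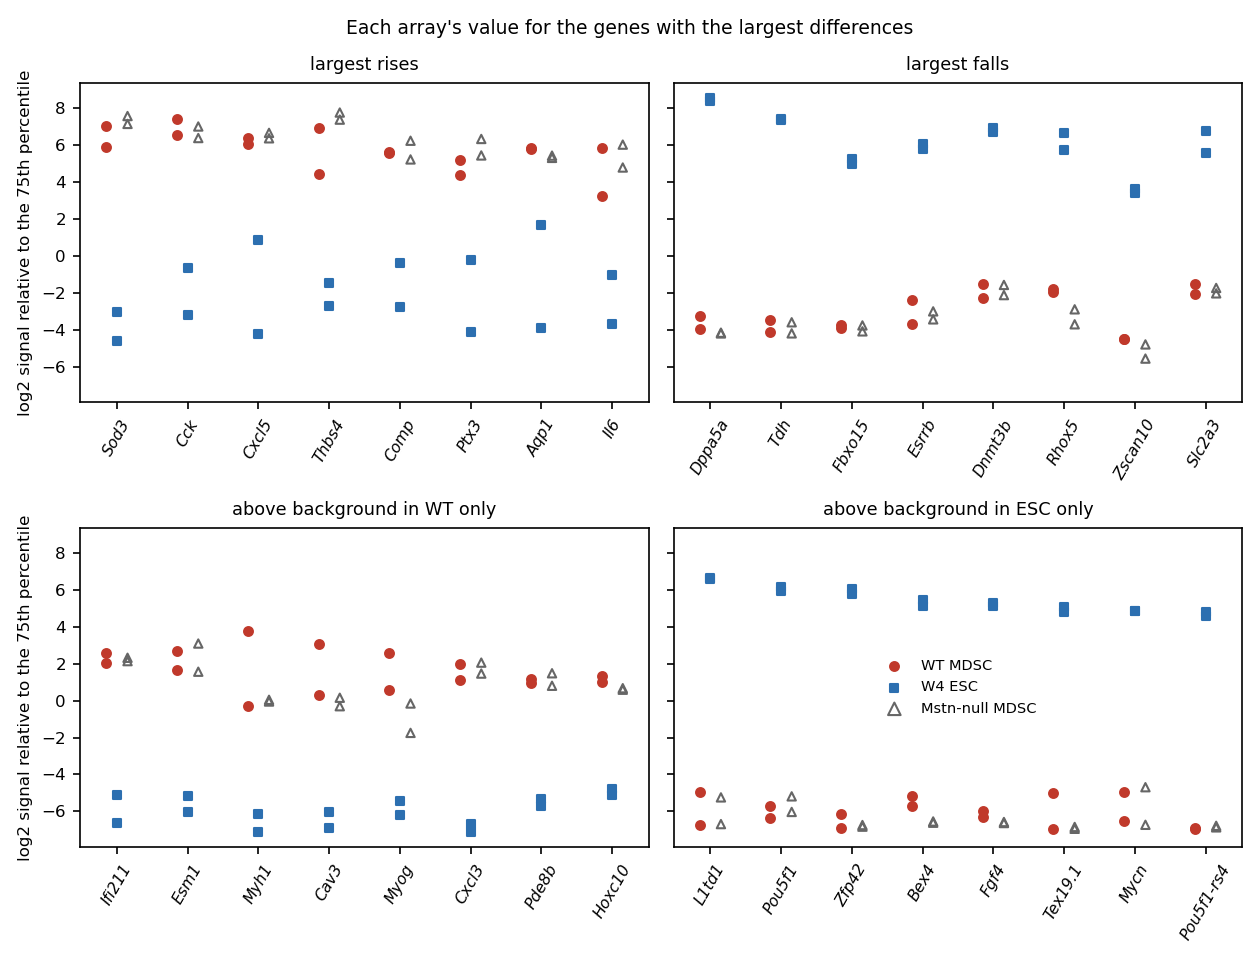
Log2 signal relative to the 75th percentile on each array (y axis) for the 32 genes with the largest differences (x axis): red circles are WT MDSC arrays, blue squares W4 ESC arrays and open triangles Mstn-null MDSC arrays. In the upper left panel the ESC arrays of Cxcl5 (0.87 and -4.21) and Aqp1 (1.68 and -3.93) lie far apart, and in the lower left panel the WT arrays of Myh1 do (3.76 and -0.30).

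Slide 2 held both the ESC and the Mstn-null MDSC arrays. The differences Mstn-null MDSC minus ESC, which share the ESC arrays with the comparison above, were 11.20 for Sod3, 8.63 for Cck, -12.66 for Dppa5a and -11.30 for Tdh. Where WT MDSC departed from Mstn-null MDSC was tested in the same fit. No feature passed (0 of 24738, 0.0%; limma, smallest adjusted p = 0.0567), while 3561 had an unadjusted p under 0.05, and 2 passed after quantile normalization. The Mstn probe was at background in WT MDSC (-4.90 and -6.71) as in ESC (-7.23 and -6.85), and was not tested.

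Transcripts of the pluripotent state were mostly lower in WT MDSC, many of them at background. Of 20 core and naive pluripotency factors tested, 16 were lower and 1 higher, with a median difference of -7.19 (-6.34 with members measured on one side alone at their bound), and of 25 other embryonic stem cell markers 23 were lower and 0 higher (median -7.31, or -6.68 at the bounds). Sox2, the partner of Oct4, read -4.20 and -4.79 in WT, above background on 1 array, against 3.43 and 3.65 in ESC (-8.04 ± 0.25). Nr0b1, a factor that sustains the naive network, was at background in WT (-6.61 and -6.55 against 3.69 and 4.26) and at least 448-fold higher in ESC. Tfcp2l1, a target of LIF signalling, was at least 306-fold higher in ESC. For Nr0b1 and Tfcp2l1 neither isolation gave a signal above background. Others kept a measured level: Utf1, a chromatin-bound ESC protein, read -0.17 and -0.31 against 5.74 and 5.94 (-6.08 ± 0.17), and the Krüppel-like factor gene Klf2 3.22 and 3.05 against 6.26 and 5.63 (-2.81 ± 0.25). Lin28a, which blocks maturation of let-7 microRNAs, fell by 5.29 ± 0.16, and its paralog Lin28b was at least 228-fold lower.

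The 4 members that were not lower were Klf4 (4.09 and 4.03 against 4.34 and 3.44, adjusted p = 0.681), Sall4 (0.37 and 0.40 against 0.53 and 0.59, adjusted p = 0.355), Tbx3 (adjusted p = 0.0521) and Nanog. Nanog, which has near-identical retrotransposed copies in the genome, was the member called higher, at -0.07 and -0.18 against -0.77 and -0.66 (0.59 ± 0.15, adjusted p = 0.0275). That call was lost without WT isolation 1, WT isolation 2, ESC passage 12 or ESC passage 15, and under several other settings.

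Genes of the germ line and of the 2-cell-like state, which ESC also transcribe, were lower too. Of 20 germ cell genes tested 19 were lower (median -5.52, or -4.17 at the bounds), among them Tdrd12 and Mael of the piRNA pathway (at least 114-fold and 94.2-fold) and Ddx4 (Vasa; at least 58.2-fold). Dppa3 (Stella), a maternal factor, was at least 72.0-fold lower. The 20 tested germ cell genes were above background on both ESC arrays and 5 of them on both WT arrays, so most entered the test through ESC. Over the 22 with a probe the median was -5.24. Under other processing or without 1 array, the median of the tested genes lay between -5.71 and -3.07. Of 10 tested 2-cell-like genes 7 were lower (median -3.97, or -2.67 at the bounds). All 10 were above background on both ESC arrays, and over the 14 with a probe the median was -1.32. The median of the tested genes was -2.64 without ESC passage 15, and with normexp 4 were lower and the median was -1.35. Zscan4f, a telomere-associated gene of a near-identical family and therefore uncertain by member, read 2.65 at passage 12 and 5.38 at passage 15, against -6.73 and -6.69 in WT, at least 460-fold higher in ESC. Zscan4c showed the same order, with 0.62 at passage 12, 3.75 at passage 15 and -3.47 and -3.20 in WT (-5.52 ± 1.01). Both ESC passages stood above WT MDSC, with passage 15 the higher.

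Among 17 tested germ layer and early lineage factors, 8 were lower and 1 higher (median -1.86, or -1.29 at the bounds). Otx2, an epiblast and forebrain factor, read -3.89 and -4.62, above background on 1 of the WT arrays, against 3.95 and 3.01 (-7.74 ± 0.42 with both readings), and T (brachyury), a mesoderm factor, was at least 13.4-fold lower in WT MDSC. The placental and germ line factor Tfap2c was at least 245-fold lower. Gsc, a homeobox factor of the organizer, was the member that was higher, at -0.45 and -1.10 against -3.68 and -3.63 (2.88 ± 0.26).

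**Figure D4:**
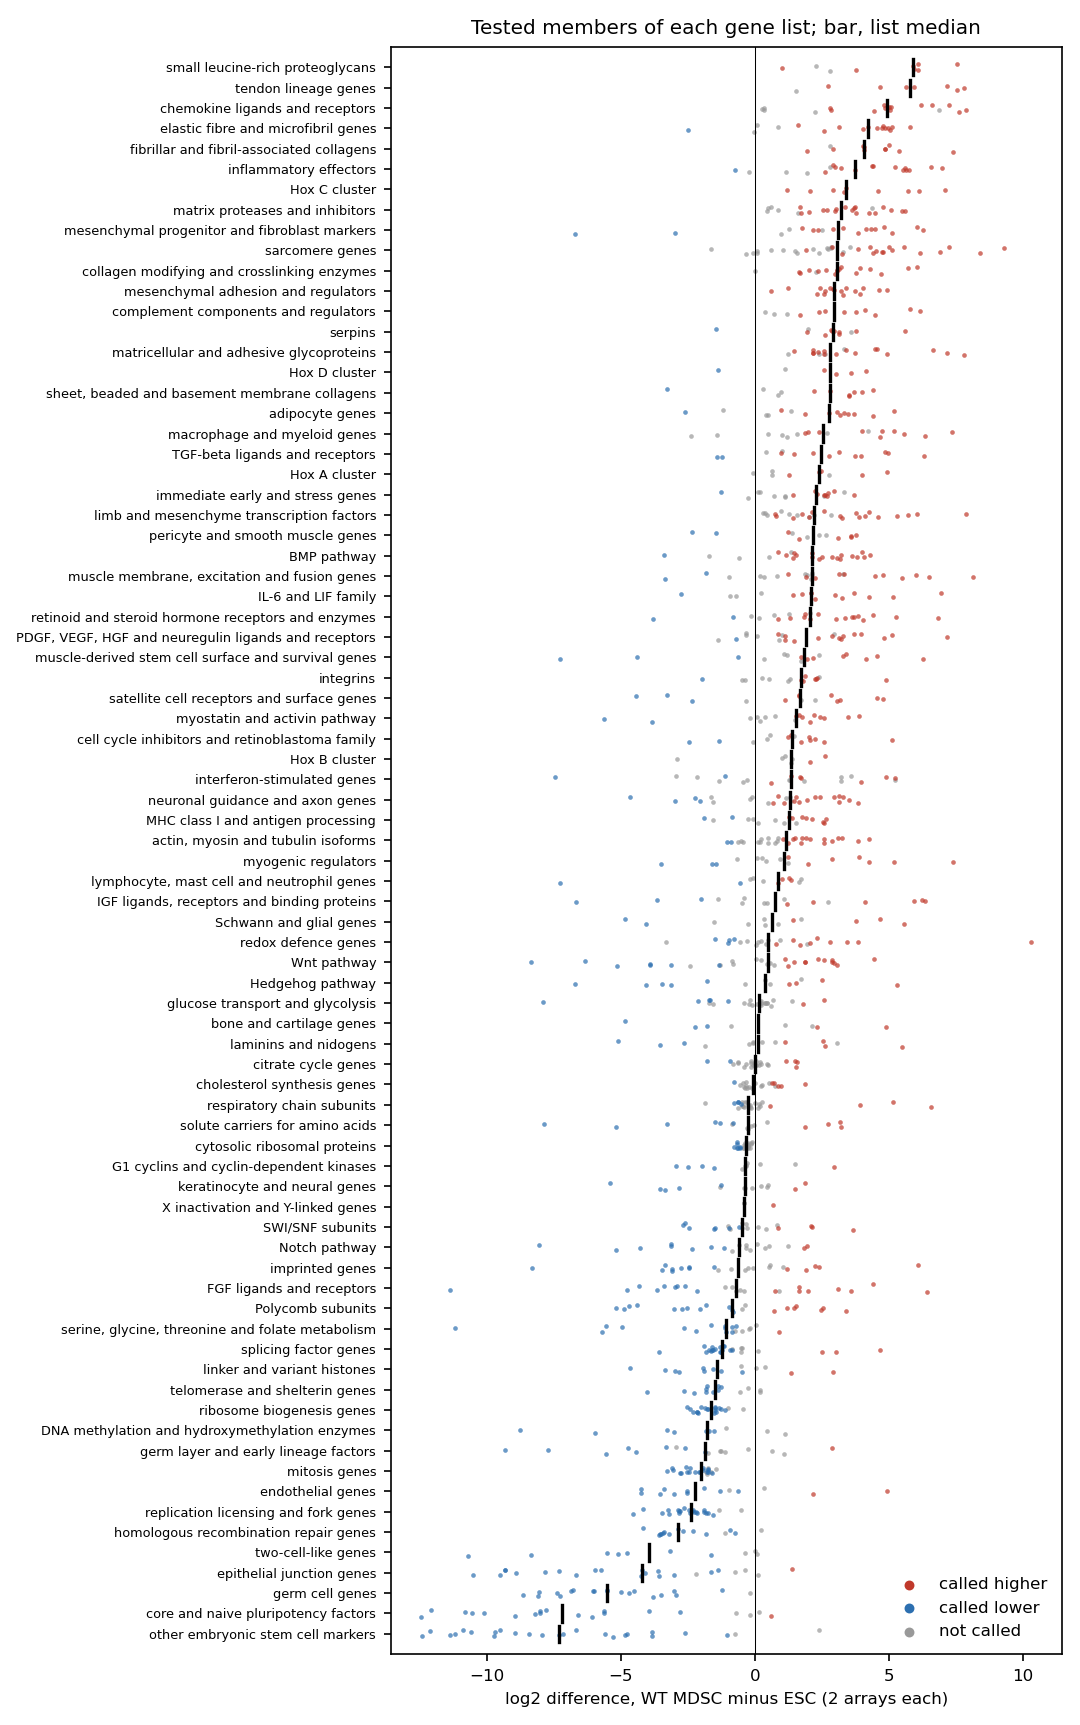
Log2 difference, WT MDSC minus W4 ESC (x axis, 2 arrays each), of the tested members of the 78 gene lists (y axis, ordered by median); red points were called higher in WT MDSC, blue points lower, grey points were not called, and the black bar is the list median. Small leucine-rich proteoglycans lie at the top (median 5.90, although 4.16 at the bounds, under the 5.14 of tendon lineage genes) and other embryonic stem cell markers at the bottom (median -7.31), while citrate cycle and cholesterol synthesis genes lie around 0.

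The adhesion genes separated an epithelial from a mesenchymal set. Of 23 tested epithelial junction genes 18 were lower in WT MDSC and 1 higher (median -4.23), and the 17 mesenchymal adhesion genes and regulators tested were called higher (17 of 17, median 2.97). Cdh1, which encodes E-cadherin, read -6.24 and -6.63 in WT, at background, against 3.95 and 4.25 in ESC, at least 489-fold. Epcam, an epithelial adhesion molecule, read -6.47 and -6.33 against 2.42 and 2.63 (at least 164-fold), and the epithelial regulator gene Grhl2 was at least 155-fold lower. Keratin 8 (Krt8, at least 286-fold) and claudin 6 (Cldn6, at least 84.2-fold) followed. Pkp3, a desmosomal plakophilin, was the exception: 4.18 and 3.91 against 2.58 and 2.72 (1.39 ± 0.18).

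In the mesenchymal set, Cdh2 (N-cadherin) read 4.27 and 4.23 against 1.18 and 2.48 (2.42 ± 0.44), and the intermediate filament gene Vim 7.97 and 8.75 against 6.29 and 5.82 (2.30 ± 0.33). Vim was thus well above background in ESC as well. The transcription factors that repress E-cadherin were higher: Snai2 by 3.91 ± 0.56, Zeb2 by 2.93 ± 0.18, Zeb1 by 2.82 ± 0.52 and Twist1 by 2.62 ± 0.26. The receptor tyrosine kinase gene Axl read 5.27 and 5.75 against 1.29 and 1.64 (4.04 ± 0.24). Integrins were less uniform, with 7 of 15 tested members higher and 1 lower (median 1.73). Itga5, the fibronectin receptor subunit, was among the higher ones at 2.62 and 2.61 against 0.01 and 0.66 (2.28 ± 0.25).

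Among chromatin regulators the direction differed by member. Calls in both directions were also the rule over all named genes (29.8% higher and 29.3% lower). Of 10 tested enzymes of DNA methylation and its removal 7 were lower and 0 higher (median -1.78). Besides Dnmt3b, Dnmt3l, its catalytically inactive partner, read -0.08 and -0.63 against 5.5 and 5.73 (-5.97 ± 0.24), and the hydroxylase gene Tet2 -0.36 and -0.45 against 3.02 and 2.71 (-3.27 ± 0.19). Uhrf1, which guides the maintenance methyltransferase to replicated DNA, fell by 3.01 ± 0.46 on the log2 scale.

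Of 21 tested Polycomb subunits 7 were higher and 12 lower (median -0.86), with alternative members of the same complexes in opposite directions. Among the chromobox proteins, Cbx8 was higher by 2.47 ± 0.24, whereas Cbx7, the main one in ESC, was at least 11.6-fold lower. Bmi1, a ring finger subunit, read 1.88 and 2.24 against -0.38 and -0.60 (2.55 ± 0.22), while its counterpart Pcgf6 fell by 3.03 ± 0.19. The cofactors Jarid2 (-0.79 and -1.01 against 3.86 and 4.09, -4.87 ± 0.18) and Mtf2 (-4.69 ± 0.24) fell as well, and the core subunits Ezh2 and Eed fell by 2.71 ± 0.38 and 2.53 ± 0.19. Ezh1, the alternative enzyme, was not called (2.58 and 2.43 against 2.87 and 2.86, adjusted p = 0.103).

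Of 20 tested SWI/SNF remodelling subunits 4 were higher and 7 lower (median -0.48), shares not far from the 29.8% and 29.3% of all named genes. Arid1a fell by 2.45 ± 0.15 and Actl6a by 2.69 ± 0.23, whereas Smarcc2 was higher (-0.46 and -0.69 against -2.30 and -3.00, 2.08 ± 0.27). Smarca2, the ATPase found more in differentiated cells, read 0.82 and 0.55 against -1.79 and -4.18 (3.67 ± 0.77, adjusted p = 0.0139), a call lost without WT isolation 1. Linker and variant histones were lower in 9 of 14 tested members and higher in 2 (median -1.42), and the count of lower ones was 5 without WT isolation 1 and 5 without ESC passage 15. H1f0, the linker histone of resting and differentiated cells, was one of the higher members (-1.18 and -1.45 against -2.65 and -2.67, 1.34 ± 0.18).

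Genes of DNA replication and repair were lower in WT MDSC. Of 24 tested replication licensing and fork genes 22 were lower and 0 higher (median -2.38, and -1.76 without WT isolation 1). Orc1, the largest subunit of the origin recognition complex, read -4.66 and -2.83 in WT, above background on 1 array, against 0.83 and 0.77 in ESC (-4.55 ± 0.60). The helicase subunit gene Mcm5 read 1.21 and 2.90 against 5.29 and 5.30 (-3.24 ± 0.55, adjusted p = 0.00758), and the licensing factor gene Cdt1 1.99 and 3.09 against 6.02 and 5.98 (-3.46 ± 0.38). In each of these genes isolation 2 stood closer to ESC than isolation 1. Homologous recombination repair genes were lower in 13 of 15 tested members and higher in 0 (median -2.85), with Blm, a helicase, at -0.85 and -0.13 against 3.09 and 3.00 (-3.54 ± 0.27) and Brca2 at -1.14 and -0.45 against 2.93 and 2.33 (-3.43 ± 0.33). Of 14 telomerase and shelterin genes tested, 10 were lower and 0 higher (median -1.49). The telomere-binding gene Terf1 read -0.12 and 0.56 against 4.05 and 4.48 (-4.05 ± 0.35), while Tert, the telomerase catalytic subunit, was not called (-2.16 and -1.85 against -1.37 and -1.54, adjusted p = 0.0686).

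Mitosis genes were lower in 19 of 24 tested members and higher in 0 (median -2.00). Their count of calls rested on few arrays: it was 11 without WT isolation 1 (median -1.29), 5 without ESC passage 12 and 4 without ESC passage 15, whereas it was 24 without WT isolation 2, the array with the higher levels. Top2a, the topoisomerase that untangles sister chromatids, read 0.35 and 1.83 against 3.96 and 3.82 (-2.80 ± 0.52, adjusted p = 0.00989). The checkpoint kinase gene Bub1 read -0.81 and 0.69 against 2.91 and 3.15 (-3.08 ± 0.51). As for replication genes, isolation 2 lay between isolation 1 and ESC.

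Promoters of the replication and mitosis lists are shown. Their members moved together, and part of them carry short motifs that the literature ties to cell cycle transcription. In windows of 300 bases, from 250 before to 50 after the annotated start (RefSeq, GRCm38.p6), the E2F motif TTTNGCGC was found on either strand in 8 of 19 matched replication promoters (42.1%), against 2.16% of the 11733 tested genes with a promoter. The cell cycle homology region motif TTTGAA was found in 13 of 19 mitosis promoters (68.4%), against 12.5%, and CCAAT in 78.9% and 84.2% of the lists against 38.4%. Homologous recombination repair genes, which were mostly lower too, differed. Of their 10 matched promoters 0 held the E2F motif, 1 (10.0%) TTTGAA and 7 (70.0%) CCAAT. A match is a description of letters, not of a bound site. The 3 promoters below were chosen after the matches were seen: those of Mcm5 (chr8:75109259-75109558, + strand, matches at -153 and -149, which overlap), Orc1 (chr4:108579204-108579503, + strand, match at -27) and Top2a (chr11:99024140-99024439, - strand, matches at -179 and -23). Positions are those of the first base of the match relative to the start, the sequences run 5′ to 3′ on the gene's strand, and capitals mark the E2F motif in Mcm5 and Orc1 and TTTGAA or its complement in Top2a.
Mcm5: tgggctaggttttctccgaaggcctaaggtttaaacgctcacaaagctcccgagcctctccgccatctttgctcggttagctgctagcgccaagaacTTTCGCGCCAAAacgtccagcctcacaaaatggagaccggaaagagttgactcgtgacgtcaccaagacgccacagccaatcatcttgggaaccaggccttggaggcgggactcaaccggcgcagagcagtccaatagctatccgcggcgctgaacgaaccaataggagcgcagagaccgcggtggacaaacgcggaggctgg
Orc1: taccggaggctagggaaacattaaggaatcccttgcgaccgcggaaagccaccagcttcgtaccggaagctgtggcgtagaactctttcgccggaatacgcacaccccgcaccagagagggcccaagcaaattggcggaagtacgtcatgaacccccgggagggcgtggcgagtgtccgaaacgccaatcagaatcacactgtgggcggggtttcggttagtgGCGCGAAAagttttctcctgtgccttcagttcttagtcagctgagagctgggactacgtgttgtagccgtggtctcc
Top2a: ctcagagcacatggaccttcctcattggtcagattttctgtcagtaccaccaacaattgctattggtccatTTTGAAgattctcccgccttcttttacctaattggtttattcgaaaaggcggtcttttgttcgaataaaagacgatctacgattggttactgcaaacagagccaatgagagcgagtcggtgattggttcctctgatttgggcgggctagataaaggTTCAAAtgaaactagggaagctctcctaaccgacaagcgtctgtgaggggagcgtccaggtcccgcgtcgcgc

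Several cycle inhibitors were higher in WT MDSC. Of 14 tested cell cycle inhibitors and retinoblastoma family genes 8 were higher and 2 lower (median 1.38). Cdkn2c, an inhibitor of the G1 kinases, read 1.59 and 1.92 against -2.40 and -4.28 (5.10 ± 0.63), its neighbour in function Cdkn2b 3.54 and 3.75 against 1.27 and 1.53 (2.24 ± 0.20), and the p53 target Cdkn1a 4.92 and 4.62 against 3.05 and 2.48 (2.00 ± 0.25). Unlike the mitosis genes, these read alike in both isolations. Of the G1 cyclins and their kinases 1 of 12 tested was higher and 4 lower (median -0.37): cyclin D2 (Ccnd2) read 5.23 and 5.41 against 2.58 and 2.18 (2.94 ± 0.21), and cyclin E1 (Ccne1) 2.71 and 3.15 against 5.79 and 5.96 (-2.95 ± 0.21).

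Ribosome biogenesis genes were lower in 18 of 20 tested members and higher in 0 (median -1.65). The nucleolar protein gene Ncl read 5.02 and 5.77 against 7.38 and 7.43 (-2.01 ± 0.29) and the RNA polymerase I subunit gene Polr1b -0.12 and 0.48 against 2.73 and 2.70 (-2.54 ± 0.27). The mean level of 27 cytosolic ribosomal proteins moved less, 7.98 and 8.15 against 8.36 and 8.54 (median difference -0.32). Of these 7 were called lower, but 0 without WT isolation 1 or without ESC passage 15. Of 26 tested splicing factor genes 18 were lower and 3 higher (median -1.24). The 3 higher were the RNA-binding regulators: Mbnl1 (3.99 and 4.33 against -0.09 and -0.91, 4.66 ± 0.33), Mbnl2 (4.57 and 4.56 against 1.62 and 1.49, 3.01 ± 0.15) and Celf2 (2.92 and 3.22 against 0.39 and 0.72, 2.51 ± 0.21).

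Central energy metabolism differed little by comparison. Of 25 tested citrate cycle genes 4 were higher and 2 lower (median 0.01), and 3 of those higher were pyruvate dehydrogenase kinases, which restrain the entry of pyruvate into the cycle: Pdk4 (1.55 ± 0.26), Pdk3 (1.53 ± 0.19) and Pdk2 (1.49 ± 0.28). The synthase gene Cs read 5.89 and 6.24 against 5.77 and 5.99 (adjusted p = 0.457). Of 24 glucose transport and glycolysis genes 2 were higher and 5 lower (median 0.14). Gapdh read 9.19 and 9.04 against 8.95 and 9.14, and Eno1 8.19 and 8.14 against 8.14 and 8.37 (differences of 0.07 ± 0.18 and -0.09 ± 0.17). The called differences lay in other transporters and isoforms. The muscle enolase gene Eno3 was higher (5.17 and 4.83 against 2.08 and 2.80, 2.57 ± 0.39) and Slc2a3 and the lactate dehydrogenase gene Ldhb (3.38 and 2.79 against 5.33 and 5.10, -2.13 ± 0.25) were lower. The count of lower members was 3 without WT isolation 2 and 3 without either ESC array. Cholesterol synthesis genes were called higher in 5 of 20 and lower in 1 (median -0.06), but 1 was higher without WT isolation 1.

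Serine, glycine, threonine and folate metabolism, which feeds methyl groups and nucleotides, was lower in 13 of 19 tested members and higher in 1 (median -1.08; 8 lower without ESC passage 12 and 7 without passage 15). Apart from Tdh, the glycine decarboxylase gene Gldc read -2.52 and -0.28 against 4.39 and 4.22 (-5.70 ± 0.84), Amt, of the same enzyme complex, was at least 14.9-fold lower, and Gcat, the enzyme that follows Tdh, read 1.53 and 1.99 against 4.24 and 4.57 (-2.64 ± 0.26). Phgdh, the first enzyme of serine synthesis, was not called (4.16 and 4.83 against 4.34 and 4.60, adjusted p = 0.955). Of 23 redox defence genes 9 were higher and 4 lower (median 0.50, 0.86 without WT isolation 1 and 0.20 without isolation 2; 2 lower without ESC passage 15). Besides Sod3, the glutathione peroxidase gene Gpx8 read 5.13 and 5.23 against 2.09 and 1.41 (3.43 ± 0.26), while the mitochondrial and cytosolic dismutase genes Sod2 (-0.77 ± 0.21) and Sod1 (-0.98 ± 0.20) were called lower. The Sod1 call was lost without WT isolation 1 or ESC passage 15, and that of Sod2 without WT isolation 2 or either ESC array.

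The muscle programme was present in WT MDSC, at levels that differed between the isolations. Of 16 tested myogenic regulators 7 were higher and 3 lower (median 1.08, and 0.59 without ESC passage 15). Myog, the factor that starts terminal differentiation, read 2.58 and 0.58 in WT against -5.44 and -6.19 in ESC, where it was at background. Myod1, which commits cells to the lineage, read -0.04 and -2.24 against -5.33 and -5.46 (at least 15.4-fold). Both were lower in isolation 2 and above ESC on both arrays. The earlier markers were at the edge of detection: Pax7, the satellite cell factor, was above background on 1 WT and 1 ESC array (-4.16 and -4.35 against -4.19 and -5.57), and Myf5 on none (-6.07 and -6.56 against -6.95 and -6.92), so neither was tested. The coactivator gene Eya4 read -0.12 and -1.15 against -3.43 and -3.60 (2.88 ± 0.36), while the related Eya1 was higher in ESC (3.80 and 4.05 against 5.17 and 5.60, -1.46 ± 0.22). Mymk, the fusion protein gene, was called higher (2.30 and -0.22 against -1.96 and -2.22, 3.13 ± 0.82) and Mymx, its partner, lower (2.72 and 0.03 against 4.79 and 4.66, -3.35 ± 0.91); both calls were lost without either ESC array.

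Of 34 tested sarcomere genes 17 were higher and 0 lower (median 3.06, against 0.01 over all named genes). The count depended on the arrays, with 29 higher without WT isolation 2, 7 without ESC passage 12 and 8 without ESC passage 15, and without WT isolation 1, where 2 were called lower, the median was 1.56; the median was 4.60 without isolation 2. Myl1, a fast myosin light chain, read 6.89 and 2.97 against -4.19 and -4.51, above background on 1 of the ESC arrays (9.28 ± 1.25 with both readings, adjusted p = 0.00403, and 7.32 without isolation 1). Cardiac troponin T (Tnnt2), also made in young fibres, read 4.26 and 1.00 against -4.35 and -4.20 (6.90 ± 1.04). Isolation 1 was the higher in these genes, and isolation 2 still lay above ESC. Mybph, a myosin-binding protein, read 2.58 and -0.54 (at least 68.5-fold above ESC) and the fast heavy chain gene Myh1 3.76 and -0.30 (at least 113-fold), although the probes of heavy chain genes may share signal with close paralogs. Myh8, the perinatal heavy chain, read 5.24 in isolation 1, 0.39 in isolation 2, and -0.84 and -0.65 in ESC, and was not called (adjusted p = 0.105). Des, the muscle intermediate filament, read 3.03 and -1.01 against -1.59 and -1.14, with isolation 2 just above the ESC arrays, and was not called (adjusted p = 0.17).

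The membrane of the fibre showed the same order. Of 23 tested muscle membrane, excitation and fusion genes 11 were higher and 2 lower (median 2.12), and 21 were higher without isolation 2, 7 without isolation 1, 3 without ESC passage 12 and 4 without ESC passage 15; the median was 3.81 without isolation 2 and 0.81 without isolation 1. Chrna1, the acetylcholine receptor subunit, read 4.23 and 1.08 against -3.44 and -4.25 (6.50 ± 1.05), Cav3, the muscle caveolin, 3.08 and 0.28 against -6.01 and -6.91, and the junction kinase gene Musk -0.48 and -1.77 (at least 15.6-fold). The isolations lay nearer to each other for Musk than for Chrna1 or Cav3. Of 14 tested satellite cell receptors and surface genes 8 were higher and 3 lower (median 1.68). Megf10, an engulfment receptor of satellite cells, read 0.19 and 0.69 against -5.18 and -3.53, above background on 1 of the ESC arrays (4.79 ± 0.60 with both readings), and the syndecan gene Sdc3 3.11 and 3.31 against 0.14 and -0.07 (3.17 ± 0.26), whereas Calcr, the calcitonin receptor of quiescent satellite cells, was at background in WT (-6.74 and -6.76 against -2.41 and -2.21, at least 5.75-fold lower).

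A pair of sarcomere promoters is shown because this list differed from the tested genes as a whole in its motifs and CpG content. The TATA motif TATAAA was found on either strand in 10 of 29 matched sarcomere promoters (34.5%) and in 17.8% of the 292 matched promoters of genes at least 16-fold higher in WT MDSC, against 9.01% of all tested genes with a promoter; it was found in 10.0% of the 408 of genes at least 16-fold lower. The median number of CpG dinucleotides in the 300 bases was 5 in sarcomere promoters, 7 in those of the genes at least 16-fold higher, 13 in those at least 16-fold lower and 19 over all. Neither trait was particular to sarcomere genes. Chemokine ligand and receptor promoters held the TATA motif in 6 of 17 (35.3%), with a median of 8 CpG. Of core and naive pluripotency factor promoters 3 of 15 held it (20.0%), with a median of 14 CpG. The AP-1 motif TGANTCA stood in 14.4% of the promoters of the genes at least 16-fold higher, against 5.43% over all. The promoters of Myh1 (chr11:67199852-67200151, + strand, matches at -208 and -32, 3 CpG) and Mybph (chr1:134193198-134193497, + strand, match at -39, 0 CpG) were chosen after the matches were seen; capitals mark the motif or its complement.
Myh1: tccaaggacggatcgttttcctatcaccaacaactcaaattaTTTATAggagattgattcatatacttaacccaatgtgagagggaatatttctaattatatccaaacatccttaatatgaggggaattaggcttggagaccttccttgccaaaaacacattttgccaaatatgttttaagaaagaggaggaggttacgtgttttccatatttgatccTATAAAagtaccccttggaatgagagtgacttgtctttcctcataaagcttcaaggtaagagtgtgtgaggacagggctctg
Mybph: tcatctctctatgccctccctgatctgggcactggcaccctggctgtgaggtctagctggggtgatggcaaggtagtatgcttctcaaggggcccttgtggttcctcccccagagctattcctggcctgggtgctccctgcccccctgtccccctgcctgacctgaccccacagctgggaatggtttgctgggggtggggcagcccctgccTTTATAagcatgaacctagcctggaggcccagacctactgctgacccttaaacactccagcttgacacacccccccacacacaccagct

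Surface proteins used to describe MDSC were higher in part. Of 16 tested muscle-derived stem cell surface and survival genes 8 were higher and 3 lower (median 1.84; 5 higher without ESC passage 15). Ly6a (Sca-1) read 6.47 and 7.27 against 2.11 and -0.89 (6.26 ± 1.02), Vcam1, an adhesion molecule, 4.14 and 3.82 against 0.17 and -1.31 (4.55 ± 0.52), and Cd44, the hyaluronan receptor, 3.90 and 4.96 against 0.86 and 1.18 (3.41 ± 0.38). Cd34, the sialomucin, read 4.73 and 6.47 against 2.70 and 0.20 (4.15 ± 0.99, adjusted p = 0.0206), a call lost without WT isolation 2 or ESC passage 15. WT lay above ESC on both arrays for these markers. Bcl2, a survival gene, was not called (-0.67 and -0.51 against -1.98 and -1.37, adjusted p = 0.0575). Prom1 (CD133) read -3.04 and -3.06 against 1.01 and 1.71 (-4.41 ± 0.27), and the receptor gene Kit was at background in WT, at least 62.7-fold lower. Of 18 mesenchymal progenitor and fibroblast markers 13 were higher and 2 lower (median 3.10), with Pdgfrb at 4.40 and 4.20 against -0.58 and -1.03 (5.10 ± 0.22).

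Fibroblast transcripts were measured in ESC as well. Of the 9 fibroblast or feeder markers Col1a1, Col1a2, Col3a1, Pdgfra, Pdgfrb, Thy1, Dcn, Lum and Postn, 8 were above background on both ESC arrays. The exception was Lum, a matrix proteoglycan, at 2.14 at passage 12 and at background (-5.96) at passage 15, against 1.70 and 0.11 in WT. Dcn read 2.96 and -2.05 in ESC against 7.36 and 5.70 in WT (6.07 ± 1.70, adjusted p = 0.0329, a call lost without either WT array), Pdgfra 1.01 and -3.11 against 3.73 and 3.80, and Col1a1 3.99 and 3.69 against 8.11 and 7.68. The call of Dcn was also lost when the 4 WT and ESC arrays were fitted alone. The passage 12 array was the higher for Dcn, Pdgfra and Lum. The part of feeder cells in the ESC levels was not tested.

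Matrix genes were mostly higher in WT MDSC. Of 11 fibrillar and fibril-associated collagens tested 10 were higher and 0 lower (median 4.06). Col1a2 read 9.32 and 8.78 against 4.94 and 3.49 (4.84 ± 0.51), Col1a1 differed by 4.06 ± 0.22, and Col5a2, which sets the width of fibrils, read 2.60 and 1.74 against -2.58 and -2.82 (4.87 ± 0.34). Col14a1, a fibril-associated collagen, read 0.63 and 0.32 in WT and -6.91 and -6.93 in ESC, where this probe was at background. Of 18 tested collagen modifying and crosslinking enzymes 16 were higher and 0 lower (median 3.05): the lysyl oxidase gene Lox read 5.59 and 5.10 against -1.04 and -0.38 (6.06 ± 0.30) and the collagen chaperone gene Serpinh1 6.78 and 6.64 against 3.42 and 3.72 (3.14 ± 0.18). Between the WT arrays these genes differed by far less than from ESC.

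Of 17 tested elastic fibre and microfibril genes 13 were higher and 1 lower (median 4.22). Fbln5, which assembles elastin, read 5.64 and 4.54 against -0.34 and -1.05 (5.79 ± 0.44), and the glycoprotein gene Emilin1 1.36 and 0.94 against -3.29 and -3.52 (4.55 ± 0.21). Ltbp4, a binding protein of latent TGF-beta, was the lower member, at 2.24 and 2.16 against 4.55 and 4.88 (-2.52 ± 0.19), while Ltbp2 (6.64 and 6.69 against 2.40 and 1.01) was higher. Elastin itself (Eln) was not called (-3.69 and -3.47 against -3.08 and -4.01, adjusted p = 0.943). Of 9 tested small leucine-rich proteoglycans 7 were higher and 0 lower (median 5.90, or 4.16 with members measured on one side at their bound). The median was 3.66 without ESC passage 15, and 3.78 over all 11 with a probe. They were led by Fmod, a collagen-binding protein of tendon (3.88 and 2.05 against -4.63 and -4.50, above background on 1 of the ESC arrays, 7.53 ± 0.67 with both readings). Bgn read 5.49 and 5.22 against 1.69 and 1.45 (3.78 ± 0.19).

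Matricellular and adhesive glycoproteins were higher in 16 of 20 tested members and lower in 0 (median 2.81); Sparc, already abundant in ESC, read 9.79 and 9.73 against 7.17 and 8.02 (2.17 ± 0.31), and fibronectin (Fn1) 8.82 and 8.04 against 6.50 and 6.05 (2.15 ± 0.33). Matrix proteases and inhibitors were higher in 18 of 24 and lower in 0 (median 3.20). Both sides of that balance moved: the membrane protease gene Mmp14 read 3.37 and 3.14 against -0.57 and -0.30 (3.69 ± 0.18) and its inhibitor genes Timp1 8.07 and 8.12 against 4.50 and 4.43 (3.63 ± 0.15) and Timp3 4.86 and 4.85 against 1.70 and 1.93 (3.04 ± 0.17). Mmp3 was not called, with 2.86 at passage 12 and -4.18 at passage 15 (adjusted p = 0.586).

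The basement membrane was mixed, as were all named genes together (29.8% higher and 29.3% lower). Of 14 tested laminins and nidogens 4 were higher and 3 lower (median 0.10). Lama2, the laminin chain around muscle fibres, read 2.60 and 1.14 against -3.69 and -3.53 (5.48 ± 0.53), and the linker protein gene Nid1 5.68 and 5.94 against 3.32 and 3.11 (2.59 ± 0.18). Lama5, a chain of epithelial and embryonic basement membranes, read 0.98 and 0.67 against 4.59 and 4.13 (-3.53 ± 0.23), and the collagen gene Col18a1 2.30 and 1.66 against 4.99 and 5.54 (-3.28 ± 0.31). The chains Lamc1 (4.44 and 4.32 against 4.36 and 4.57, adjusted p = 0.687) and Lamb1 (adjusted p = 0.0825) were not called. Of 11 tested sheet, beaded and basement membrane collagens 7 were higher and 1 lower (median 2.79; 4 higher without WT isolation 1), with Col4a5 at 1.23 and 1.34 against -1.63 and -1.38 (2.79 ± 0.26).

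Many genes that record position along the body were higher in WT MDSC, although in the Hox B cluster the share was close to the 29.8% of all named genes. The 9 tested Hox C genes were called higher in WT MDSC (9 of 9, median 3.40). Hoxc11 read 0.10 and 0.50 against -6.83 and -6.77, at background (at least 41.8-fold), Hoxc10, a hindlimb gene, 1.02 and 1.36 against -5.10 and -4.79 (at least 70.2-fold), and Hoxc9 2.16 and 2.51 against -4.69 and -2.10 (5.72 ± 0.84). The WT isolations agreed for these genes. Of 9 tested Hox A genes 5 were higher and 0 lower (median 2.37; 1.23 without ESC passage 12, and 8 higher without passage 15), with Hoxa10 at 0.79 and 0.51 against -4.16 and -4.42 (4.94 ± 0.19) and Hoxa11 at 1.67 and 1.31 against -1.74 and -3.27 (3.99 ± 0.52). Hoxa13, of the digits, was at background on all 4 arrays. Over all members with a probe, tested or not, the median was 1.25 for the 11 Hox A genes and 1.11 for the 9 Hox D genes. Of 6 tested Hox D genes 4 were higher and 1 lower (median 2.79, or 2.47 at the bounds): Hoxd8 read 0.36 and -0.15 against -3.62 and -3.33 (3.57 ± 0.25), while Hoxd13 was lower (-2.71 and -2.71 against -0.90 and -1.77, -1.37 ± 0.32), a call lost without either WT array. In the Hox B cluster 2 of 7 were higher and 0 lower (median 1.35); without ESC passage 15 it was 6 (median 2.32), and without passage 12 the median was 0.28.

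**Figure D5:**
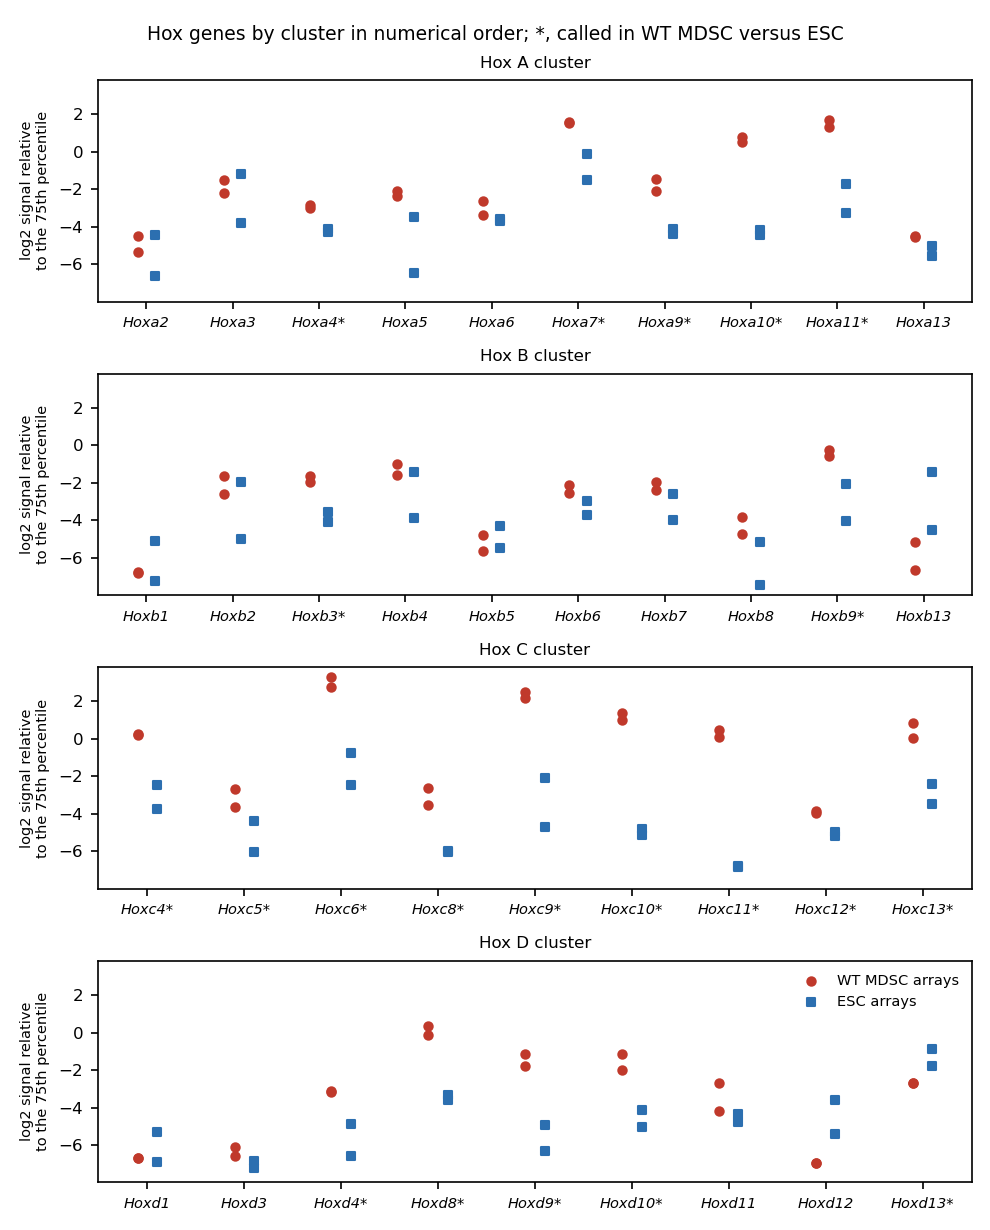
Log2 signal relative to the 75th percentile (y axis) of Hox genes with a probe (x axis, in numerical order within the clusters A to D); red circles are the 2 WT MDSC arrays, blue squares the 2 W4 ESC arrays, and an asterisk marks genes called in the comparison. The Hox C genes stand above ESC throughout, with Hoxc11 at 0.10 and 0.50 against -6.83 and -6.77, whereas Hoxd13 stands below.

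Of 27 tested limb and mesenchyme transcription factors 18 were higher and 0 lower (median 2.19). Pitx1, which specifies the hindlimb, read 3.05 and 3.52 against -2.03 and -2.84 (5.72 ± 0.33), and Tbx4, its hindlimb target, 0.33 and 1.00 against -0.77 and -1.40 (1.75 ± 0.34). The forelimb gene Tbx5 was called higher too (-1.93 and -1.46 against -2.94 and -4.67, above background on 1 of the ESC arrays, 2.11 ± 0.66), but the call was lost without either WT array or ESC passage 15. Meox2, a somite and limb muscle factor, read 2.98 and 2.19 against -3.60 and -7.0 in ESC, of which passage 15 was at background (7.89 ± 1.13 with that reading), Tbx15 3.08 and 2.77 against -1.36 and -1.95 (4.58 ± 0.26), and the mesenchymal factor gene Foxc2 1.22 and 2.07 against -1.64 and -2.58 (3.76 ± 0.44). Shox2, of the proximal limb, was at least 25.1-fold higher. Msx1 (adjusted p = 0.423) and Msx2 (0.0993), of the distal limb bud, were not called.

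Signalling genes of the TGF-beta family were higher on most sides of the pathway. Of 14 tested TGF-beta ligands and receptors 10 were higher and 2 lower (median 2.47). Lrrc32 (GARP), which tethers latent TGF-beta at the surface, read 7.19 and 7.40 against 1.06 and 0.89 (6.32 ± 0.18), the ligand gene Tgfb3 4.8 and 4.0 against 0.55 and 0.34 (3.95 ± 0.36), and the receptor gene Tgfbr2 4.78 and 3.91 against 1.27 and -0.06 (3.74 ± 0.56). Tgfbr1, the signalling receptor, was not called (1.21 and 1.19 against 0.78 and 0.79, adjusted p = 0.0623). Of 17 tested genes of the myostatin and activin pathway 9 were higher and 2 lower (median 1.53). The activin subunit gene Inhba read 4.53 and 4.83 against 1.76 and 2.49 (2.56 ± 0.31) and Gdf11, the ligand closest to myostatin, -2.53 and -2.88 against -5.09 and -5.19, above background on 1 of the ESC arrays (2.43 ± 0.19 with both readings). Acvr2b, the main myostatin receptor, was lower, at -1.23 and -1.90 against 4.21 and 3.96 (-5.65 ± 0.29). Fst, the secreted antagonist follistatin, read 3.27 and 3.50 against 2.43 and 0.85 (1.74 ± 0.53), a call lost without either WT array.

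Of 23 tested BMP pathway genes 18 were higher and 1 lower (median 2.13). The lower one was the ligand gene Bmp4 (-0.13 and -0.03 against 2.75 and 3.85, -3.38 ± 0.49), while secreted antagonists were higher: Grem1 read 4.40 and 5.66 against 1.13 and 0.79 (4.07 ± 0.44), Nbl1 5.38 and 5.52 against 1.86 and 1.42 (3.81 ± 0.21) and Nog 0.34 and 0.25 against -1.94 and -1.72 (2.12 ± 0.23). For Nog the Mstn-null difference from the same ESC arrays was -0.06. The target genes Id3 (5.89 and 6.06 against 3.23 and 2.94, 2.89 ± 0.19) and Id1 (2.37 ± 0.37) were higher as well.

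Members of the growth factor families moved in both directions, as did named genes as a whole (29.8% higher and 29.3% lower). Of 23 tested FGF ligands and receptors 8 were higher and 9 lower (median -0.72; -0.37 without WT isolation 2, and 5 higher without ESC passage 12). Fgf7, made by mesenchyme for epithelia, read 5.24 and 5.40 against -0.18 and -2.04 (6.43 ± 0.61), Fgf10, the limb bud ligand, 0.02 and 0.25 against -2.66 and -3.24 (3.08 ± 0.26), and Fgf2 -0.01 and -0.52 against -4.03 and -5.32, the last at background (4.41 ± 0.53 with that reading), in contrast to Fgf4. Of the feedback genes of the pathway, Spry4 read -1.94 and -2.14 against 0.09 and 1.08 (-2.63 ± 0.36) and the effector gene Etv5 3.25 and 2.88 against 6.4 and 6.55 (-3.40 ± 0.27). Of 16 tested IGF ligands, receptors and binding proteins 6 were higher and 3 lower (median 0.75, 1.14 without WT isolation 2; 1 lower without ESC passage 15), the higher ones including the binding proteins Igfbp6 (6.79 and 7.0 against 1.27 and -0.19, 6.36 ± 0.50) and Igfbp7 (1.72 and 1.41 against -4.66 and -4.07, 5.93 ± 0.26). Igf1 read 3.60 and 0.73 against -3.52 and -4.58 (6.22 ± 1.02), a call lost with its dimmest probe. The hepatocyte growth factor gene Hgf, which activates satellite cells, read 1.20 and 1.77 against -4.26 and -7.08, the last at background (7.16 ± 0.92 with that reading), and its receptor gene Met -1.67 and -1.28 against -2.57 and -2.62 (1.12 ± 0.21).

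In the IL-6 and LIF family, which maintains mouse ESC through LIF, 10 of 15 tested members were higher and 1 lower (median 2.09). The lower one was Lifr, the receptor chain for LIF, at -0.56 and -0.60 against 2.55 and 1.77 (-2.74 ± 0.31). The shared chain gene Il6st read 4.95 and 4.39 against 1.41 and 1.42 (3.25 ± 0.26) and Stat3, the signal transducer, 4.78 and 4.27 against 2.87 and 2.69 (1.74 ± 0.24). The feedback gene Socs3 was not called (4.98 and 4.0 against 4.13 and 4.43, adjusted p = 0.673). Retinoid and steroid hormone receptors and enzymes were higher in 15 of 22 tested and lower in 2 (median 2.06): the vitamin D receptor gene Vdr read 3.40 and 2.37 against -3.92 and -4.0 (6.84 ± 0.36) and the retinaldehyde dehydrogenase gene Aldh1a1 1.85 and 2.58 against -2.98 and -3.11 (5.26 ± 0.30).

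Of 28 tested Wnt pathway genes 12 were higher and 7 lower (median 0.50; 7 higher and a median of 0.13 without WT isolation 1, 0.97 without isolation 2 and 0.27 without ESC passage 12), and direct targets lay among the lower ones. Sp5 was at background in WT (-5.90 and -6.74 against 1.26 and 2.78, at least 116-fold lower), as was Axin2, a feedback inhibitor (at least 10.2-fold), and the nuclear effectors Tcf7 (-3.65 and -2.78 against 0.61 and 0.82, -3.93 ± 0.37) and Lef1 (-3.14 ± 0.55) were lower. The receptor gene Fzd1 (4.07 and 3.22 against -0.37 and -1.24, 4.45 ± 0.42) and the secreted inhibitor gene Sfrp1 (3.06 ± 0.51) were higher. In the Hedgehog pathway 4 of 13 were higher and 5 lower (median 0.36), against 29.8% and 29.3% of all named genes. The effector and target gene Gli1 read -3.83 and -3.87 against 3.43 and 2.33 (-6.73 ± 0.38), and the receptor and target gene Ptch1 -4.30 and -4.22 against -0.45 and -1.80 (-3.14 ± 0.51), whereas the transducer gene Smo was higher (4.32 and 4.66 against 2.85 and 3.06, 1.53 ± 0.22). Of 19 tested Notch pathway genes 2 were higher and 8 lower (median -0.59, -0.97 without WT isolation 1 and -0.93 without isolation 2), with Dtx1, a target and regulator, at least 94.9-fold lower and the ligand gene Dll3 at -1.48 and -1.37 against 0.05 and 0.39 (-1.64 ± 0.18). Notch1 was not called (-4.04 and -3.47 against -2.23 and -3.58, adjusted p = 0.187).

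Immune and inflammatory genes were higher in WT MDSC, with ESC levels that often differed between passages. Of 18 tested chemokine ligands and receptors, each above background on both WT arrays, 13 were higher and 0 lower (median 4.92). Over all 25 with a probe the median was 2.84. Cxcl12, which retains stem cells in their niche, read 5.24 and 4.62 against 0.50 and -0.31 (4.83 ± 0.42), Ccl9 2.65 and 2.90 against -4.13 and -4.83, above background on 1 of the ESC arrays (7.25 ± 0.46 with both readings), and Ccl7, a monocyte attractant, 6.35 and 6.46 against 2.73 and -0.08 (5.09 ± 0.90). Ccl2 read 6.86 and 7.46 against 4.46 and -0.12 (4.99 ± 1.46, adjusted p = 0.0373), a call lost without either WT array. Passage 12 exceeded passage 15 in all 4. Of 12 tested complement components and regulators 9 were higher and 0 lower (median 2.97), including C4b (1.42 and 2.05 against -2.04 and -2.70, 4.10 ± 0.54) and C1s1 (3.49 and 2.48 against -0.16 and -1.43, 3.78 ± 0.53). Of 19 inflammatory effectors 14 were higher and 1 lower (median 3.73): the acute phase gene Hp read 2.42 and 1.90 against -4.44 and -4.34 (6.55 ± 0.30), the growth factor gene Csf1, on which macrophages depend, 5.87 and 6.65 against 1.54 and 2.22 (4.38 ± 0.37), and the prostaglandin synthase gene Ptgs2 5.28 and 4.96 against 1.99 and 0.80 (3.73 ± 0.47).

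Interferon-stimulated genes depended on the isolation. Of 21 tested 7 were higher and 2 lower (median 1.32), but 2 were higher and 6 lower without WT isolation 1 (median 0.51), 12 were higher without isolation 2 (median 2.06), and 4 were higher without ESC passage 15. Isg15 read 4.57 and 0.79 against 1.20 and 0.52 and was not called (adjusted p = 0.294). Ifitm3, an antiviral membrane protein, read 6.56 and 5.96 against 4.61 and 4.58 (1.66 ± 0.26), whereas Ifitm1, of the same family and a marker of pluripotent and germ cells, was lower (-1.41 and -2.56 against 5.53 and 5.41, -7.45 ± 0.69). Of 17 tested MHC class I and antigen processing genes 8 were higher and 2 lower (median 1.27): the light chain gene B2m read 6.02 and 5.83 against 3.70 and 2.88 (2.64 ± 0.33) and the chaperone gene Pdia3 4.82 and 4.83 against 2.91 and 3.23 (1.76 ± 0.18). Immediate early and stress genes were higher in 9 of 18 and lower in 1 (median 2.28, or 1.47 without ESC passage 15), with Nr4a1 at 7.51 and 6.64 against 4.48 and 3.80 (2.93 ± 0.40) and Junb at 1.30 and 0.88 against -0.96 and -1.33 (2.24 ± 0.23). Fos read 5.20 and 3.87 against 3.32 and -0.86 and was not called (adjusted p = 0.0976).

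Markers of other cell types that muscle cultures can hold moved beside these genes, and their part in the results was not tested. Macrophage and myeloid genes were higher in 10 of 18 tested members and lower in 0 (median 2.55, or 4.10 without WT isolation 2), and in 4 without isolation 1. Cd14, a lipopolysaccharide co-receptor, read 1.69 and 1.11 against -3.16 and -3.36 (4.66 ± 0.61), the cathepsin gene Ctss 1.01 and -0.23 against -5.66, at background, and -3.97 (5.20 ± 0.89 with that reading), and Lilrb4a 1.97 and -0.09 (at least 65.3-fold). The defining markers were uneven. Csf1r, Lyz2 and Tyrobp were called higher, but each call depended on single arrays. The call of Csf1r was lost without either WT array or either ESC array, after quantile normalization and with no filter on dim features. That of Lyz2 was lost without WT isolation 1, and that of Tyrobp without WT isolation 1 or the ESC array of the earlier passage. Ptprc (CD45) was weak and not called, at -3.56 and -4.45 in WT against -5.34 and -5.03 (adjusted p = 0.166). The same held for Adgre1 (F4/80), at -2.36 and -3.85 against -4.0 and -4.23 (adjusted p = 0.334), and Spi1 and Cd163 were at background on all 4 arrays. Lymphocyte, mast cell and neutrophil genes were called higher in 4 of 11 and lower in 2, with 1 higher without WT isolation 1 or isolation 2, and averaged -3.01 and -3.02 in WT and -3.08 and -3.19 in ESC.

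Of 8 tested tendon lineage genes 7 were higher and 0 lower (median 5.79, or 5.14 at the bounds): Scx, the tendon factor, read 4.83 and 4.20 against -1.68 and -0.57 (5.63 ± 0.44), the mature marker Tnmd -0.34 and -1.82 (at least 16.1-fold), and Mkx was not called (1.68 and -0.93 against -1.75 and -0.58, adjusted p = 0.206). Adipocyte genes were higher in 10 of 15 and lower in 1 (median 2.74, or 2.44 at the bounds; 6 higher and a median of 1.71 without WT isolation 2). The lipase gene Lpl read 3.03 and 3.76 against -1.30 and -0.74 (4.41 ± 0.40), whereas Adipoq and Plin1, of mature adipocytes, were above background on at most 1 array a group. Pericyte and smooth muscle genes were higher in 6 of 12 and lower in 2 (median 2.16, or 1.77 at the bounds; 3 higher without WT isolation 1), with Cspg4 (NG2) at 1.34 and 2.51 against -0.94 and -2.37 (3.58 ± 0.60) and Rgs5 above background on 1 array. Of 12 Schwann and glial genes 4 were higher and 2 lower (median 0.62, 1.46 without WT isolation 2; 2 higher without isolation 1), and S100b was at least 33.2-fold higher.

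Endothelial genes ran the other way, with 2 of 14 tested members higher and 10 lower (median -2.22, or -1.61 at the bounds), and with 6 lower among those above background on all 4 arrays (median -1.30). The endothelial cadherin gene Cdh5 was higher, at -1.04 and -2.17 against -6.15 and -6.87 (at least 11.2-fold), whereas Flt1, a VEGF receptor, read -2.82 and -4.46 against 0.45 and 0.78 (-4.25 ± 0.58) and the secreted factor gene Egfl7 1.87 and 1.63 against 4.32 and 4.24 (-2.53 ± 0.17). Emcn and Erg, which mark endothelium, were at background on all 4 arrays, and Kdr was not called (4.29 and 4.27 against 3.94 and 3.96, adjusted p = 0.119).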

How the data were processed

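One-colour Agilent arrays of 6 mouse cultures were read. Per the labels and the file headers, the authors scanned the arrays and extracted the spots with Agilent Feature Extraction (version 9.1 in the submitters' processing notes; the file headers name a later version), and deposited each spot's background-subtracted processed signal as an intensity on a linear scale. From the deposited intensity, log2 values minus the array's 75th percentile were computed here. Control spots and outlier flags were left out, spots of a probe were averaged, and a gene was read by its brightest probe. Of 55681 probes 26407 were matched to 1 RefSeq symbol. Features well above background on both arrays of WT MDSC or of ESC were tested with limma (3.58.1, R 4.3.3) in a model of 3 groups and 6 arrays, two-sided, with Benjamini-Hochberg adjustment at 0.05 (residual df 3). The code was tested on simulated data.

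Named genes were the 8 largest rises and falls on all 4 arrays, the 8 largest bounds in each direction, list members and the 5 largest gaps between arrays of a group in each direction. Bounds ("at least N-fold") compare the bright mean with the other group's lowest signal well above background, or the probe's own signal where higher. The comparison and the 78 gene lists were chosen with earlier results of these data known, so counts over lists are descriptions. Normexp, tried as an alternative, used median spot signals. Promoters came from a RefSeq table of GRCm38.p6, 1 per symbol. Some tested genes are not reported here.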

Additional observations from a re-analysis of the deposited data

How the results depend on the processing

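Across 16 alternatives the number of features higher in WT MDSC lay between 4987 and 7255 and the number lower between 4538 and 6854, against 6783 and 6556. Leaving out 1 array gave 4987 to 5680 higher and 4538 to 5739 lower. The share of higher calls lay between 48.1% and 53.5%, although each alternative also put the arrays on a common scale. Leaving out either Mstn-null array gave the same counts as fitting the 4 WT and ESC arrays alone, so these alternatives are not separate checks. No feature was called in the opposite direction under any setting except normexp (2), the mean over probes (32) and the dimmest probe (141). Median centring moved the median of all features to 0.08 and no filter on dim features, with 37153 tested, moved it to 0.24. With the 4 WT and ESC arrays fitted alone, 108 called list members lost their call, among them Dcn, Ccl2, Fst and Tbx5. Those calls rested on the spread estimated with the Mstn-null arrays. Of 875 called list members 554 kept their call under every setting that tested them and 321 lost it under at least 1.

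The median of keratinocyte and neural genes became 0.24 among features above background on all 4 arrays, and that of the Hedgehog pathway -0.33 without ESC passage 12 (up to 0.76 without another array). Other values turned with the probe chosen. The mean over probes gave -0.14 for Smarcc1, 0.18 for Dmd, -0.34 for Fgfr4, 0.68 for Ptges and -0.27 for Rxrg. The dimmest probe gave -1.44 for Smarcc1, 0.17 for Tenm4, -2.31 for Fgfr4, -1.45 for Itgam, 0.017 for Pfkp, 2.11 for Ptges, 1.35 for Rps6, -0.38 for Rxra, -1.40 for Rxrg and -1.23 for Tpm1. The cause was not tested. WT and Mstn-null MDSC alone share replicate numbers. Deviations from the group means of same-numbered arrays correlated at -0.375 across genes. With 2 arrays a group each array mirrors the other, so this value cannot decide whether the numbers paired the cultures. With the replicate block 0 features were called between them in limma, as without it, with the crossed numbers as a block, chosen after seeing the data, 0, and after quantile normalization 2. A signal near background limits the size of a difference that can be read.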

Other observations

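Imprinted genes were lower in 9 of 22 tested members and higher in 5 (median -0.64, between -1.26 without WT isolation 1 and -0.31 without isolation 2, and -1.06 without ESC passage 15), with 3 higher without either WT array and 5 lower without isolation 2. Without either Mstn-null array 3 were higher as well. Among all named genes 29.3% were lower and 29.8% higher. Phlda2, a growth restrainer of the placenta, was at background in WT MDSC (-6.85 and -6.84 against 1.5 and 1.44, at least 78.8-fold lower), and Snrpn read 0.32 and -0.19 against 3.32 and 3.73 (-3.45 ± 0.25). Ndn, which restrains growth in muscle and nerve cells, was higher (2.17 and 2.37 against -0.18 and 0.28, 2.22 ± 0.26). H19 (5.84 and 2.66 against 5.26 and 2.14) and Dlk1 (1.1 and 4.49 against 3.45 and 1.06) differed more within each group than between the groups and were not called.

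Neuronal guidance and axon genes were higher in 15 of 27 tested members and lower in 4 (median 1.30; 2 lower without ESC passage 15). The semaphorin receptor gene Nrp1 read 0.60 and 0.69 against -3.04 and -3.39 (3.86 ± 0.24), its ligand gene Sema3c 3.10 and 4.12 against 0.20 and -0.01 (3.52 ± 0.38) and Slit2 1.46 and 1.74 against -0.87 and -2.22 (3.14 ± 0.46). Of 12 serpins 9 were higher and 1 lower (median 2.92), with Serpinf1 at 7.63 and 7.02 against 2.64 and 0.84 (5.58 ± 0.62). Amino acid carriers were higher in 4 of 16 and lower in 6 (median -0.28; 2 higher without ESC passage 15 and 3 lower without WT isolation 2). For the carriers these shares were not far from the 29.8% higher and 29.3% lower of all named genes. The arginine carrier gene Slc7a3 read -2.27 and -3.04 against 5.33 and 5.09 (-7.86 ± 0.48).

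The named genes with the widest gaps between arrays of a group were Pate12 (6.11 and -2.57), Lama1 (0.89 and -4.13), Prl2c5 (1.48 and 6.63) and Plin4 (-1.28 and 3.72) in WT isolations 1 and 2. Between ESC passages 12 and 15 they included Mmp3 (2.86 and -4.18), Ugt1a6b (2.48 and -4.06), Serpina3f (3.63 and -1.97) and Fosb (3.22 and -2.02), all higher at passage 12, and Edn1 (-4.07 and -0.85), higher at passage 15.

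Among features that the array design names only by an interval of the mouse mm9 build, the interval chr13:98267049-98267604 read -2.95 and -2.78 in WT against 3.39 and 3.11 in ESC (-6.11 ± 0.18), and chr6:31170350-31287353 read 1.52 and 1.30 against -2.33 and -3.72 (4.43 ± 0.47). Both were singled out after their values were seen, and their genes are not named here.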
